A study of Mus musculus with 6 samples.

Results

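The IFIT family (interferon-induced proteins with tetratricopeptide repeats) was examined in RENCA cells, an established mouse renal adenocarcinoma line. The family was taken by gene symbol as Ifit1, Ifit2, Ifit3, Ifit3b, Ifit1bl1 and Ifit1bl2, 6 of the 78298 genes in the deposited count table. The genes were picked by name, but with earlier results of these data known. All 6 genes were present in the table once each, and all 6 passed the low-count filter. Both groups were RENCA cells transduced with a lentivirus and then kept under 2 μg/mL puromycin for 14 days, starting 48 hours after transduction. The oe-AQP1 group (3 samples) carried the mouse Aqp1 coding sequence, which encodes the water channel aquaporin-1, behind the ubiquitin C promoter. The oe-NC group (3 samples) carried the same vector without the insert. Both vectors brought a puromycin-resistance cassette and no fluorescent reporter, so neither group is free of virus or of selection, and no untransduced sample was analysed here. The labels speak of stably transduced clones and do not say how many clones or cultures stand behind the 3 samples of a group; the p-values below measure the spread between these samples, which may be technical.

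IFIT proteins are cytosolic RNA-binding proteins of the innate antiviral response. Cells make little of them until type I interferon, or a viral RNA sensor acting through IRF3, switches the genes on. Secreted interferon-β binds the receptor formed by IFNAR1 and IFNAR2, the receptor's kinases JAK1 and TYK2 activate the transcription factor complex ISGF3, which binds interferon-stimulated response elements (ISREs) upstream of its target genes. IFIT1 holds the capped end of viral mRNA that lacks ribose methylation and keeps the ribosome from loading on it. IFIT2 binds other RNAs and takes part in cell death, and IFIT3 is known mainly as a partner of the other IFIT proteins. Ifit3b is a second copy of Ifit3 in the mouse, and Ifit1bl1 and Ifit1bl2 are related to Ifit1.

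All 6 genes lie in one cluster of 111.9 kb on chromosome 19 (chr19:34527932-34639833, GRCm39, GENCODE M39 annotation). Ifit2 (ENSMUSG00000045932, chr19:34527932-34554524), Ifit3 (ENSMUSG00000074896, chr19:34560899-34566443) and Ifit3b (ENSMUSG00000062488, chr19:34585328-34590801) are on the plus strand. Ifit1bl1 (ENSMUSG00000079339, chr19:34570291-34579356) and Ifit1bl2 (ENSMUSG00000067297, chr19:34594449-34639833) are on the minus strand. Ifit1 (ENSMUSG00000034459, chr19:34618271-34632174) is on the plus strand and lies wholly within the span of Ifit1bl2, although the exons of these genes share 0 bases. The strand setting of the counting is not given, so unspliced reads of Ifit1bl2 that fall on exons of Ifit1 cannot be told from reads of Ifit1. The annotated coding sequences are of like length, from 1212 bases in Ifit3b to 1413 in Ifit2 and Ifit1bl1.

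The copies differ widely in how alike they are, which decides how far a read can be assigned to a single gene. Over the 1212 aligned positions of the coding sequences of Ifit3 and Ifit3b, 1201 were identical (99.1%), and the longest stretch without a difference ran for 329 bases. A further 111 bases of the longest annotated Ifit3 coding sequence have no counterpart in the annotated coding sequence of Ifit3b. Ifit1bl1 and Ifit1bl2 were identical at 88.2% of 1401 aligned positions. Ifit1 was identical to Ifit1bl1 at 77.4% and to Ifit1bl2 at 77.1%, but it shared an unbroken run of 180 bases with Ifit1bl2. Ifit2 was the most distant member, with at most 66.9% identity to any other and no shared run longer than 20 bases. The stretches below show this at the scale of a sequencing read; they are coding sequence of GENCODE M39 transcripts in GRCm39, 5′ to 3′, numbered from 1 at the first base of the longest annotated coding sequence, with the positions that differ within each set in capitals.

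The first set compares coding positions 301 to 450 of Ifit3 (chr19:34564645-34564794, plus strand) with positions 190 to 339 of Ifit3b (chr19:34589015-34589164, plus strand), which differ at 4 of 150 positions (T369A, T376G, T387C and C399G from Ifit3 to Ifit3b, numbered in Ifit3).
Ifit3: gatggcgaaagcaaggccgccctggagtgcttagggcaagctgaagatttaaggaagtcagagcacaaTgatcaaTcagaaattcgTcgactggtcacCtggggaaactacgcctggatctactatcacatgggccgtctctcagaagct
Ifit3b: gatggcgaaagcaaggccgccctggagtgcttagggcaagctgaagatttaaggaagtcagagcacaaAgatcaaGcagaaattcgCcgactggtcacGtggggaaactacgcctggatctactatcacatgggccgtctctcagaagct

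The second set compares coding positions 301 to 450 of Ifit1 (chr19:34625166-34625315, plus strand) with positions 325 to 474 of Ifit1bl2 (chr19:34597141-34597290, minus strand) and of Ifit1bl1 (chr19:34571982-34572131, minus strand). Within it Ifit1 differed from Ifit1bl2 at 3 positions (A337G, T440G and A450C) and from Ifit1bl1 at 5 (A337G, G389A, C390A, C439T and A450C).
Ifit1: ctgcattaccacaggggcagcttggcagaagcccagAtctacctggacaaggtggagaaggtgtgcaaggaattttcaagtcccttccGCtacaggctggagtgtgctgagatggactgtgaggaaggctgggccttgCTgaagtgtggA
Ifit1bl2: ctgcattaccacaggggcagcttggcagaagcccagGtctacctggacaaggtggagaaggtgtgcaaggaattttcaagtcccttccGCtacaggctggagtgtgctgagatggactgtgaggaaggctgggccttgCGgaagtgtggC
Ifit1bl1: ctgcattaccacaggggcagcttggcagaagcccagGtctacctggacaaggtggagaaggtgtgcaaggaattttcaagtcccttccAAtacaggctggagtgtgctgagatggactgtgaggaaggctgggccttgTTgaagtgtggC

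Over whole transcripts, 47.8% of all 50-base stretches of Ifit3b occurred letter for letter in another member, and 32.7% of those of Ifit3. These shares were 9.3% for Ifit1bl2, 6.6% for Ifit1bl1 and 2.5% for Ifit1, and 0 of 4854 stretches of Ifit2 were found elsewhere in the family. With 150-base stretches the shares were 15.6% for Ifit3b, 10.9% for Ifit3, 1.0% for Ifit1bl2, 0.4% for Ifit1 and 0 for Ifit1bl1 and Ifit2. The read length of these libraries is not given in the sources used here, so both lengths are stated.

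Upstream sequence was compared because the members moved together in these data. RefSeq windows of GRCm38.p6 were held for all 6 genes, 9 windows in all, and each matched chromosome 19 of GRCm39 exactly once, which gave the positions below. The 250 bases before each start were searched on both strands for the ISRE core, GAAANNGAAA or its reverse complement TTTCNNTTTC, and for the gamma-activated sequence TTCNNNGAA, an element of interferon-γ target genes. The ISRE core stood in 978 of all 32851 windows of the table (2.98%) and the gamma-activated sequence in 2306 (7.02%). Among the members, Ifit1, Ifit3 and Ifit3b held 2 ISRE cores each, Ifit1bl1 held 1 in each of its 2 windows, and Ifit1bl2 held 2 in the window of its first start and 0 in the other. Neither window of Ifit2 held one, and 1 gamma-activated sequence in Ifit2 was the only such match in the 9 windows. The 2 RefSeq starts of Ifit2 lie 162 and 556 bases inside the GENCODE gene, so little of the sequence before its GENCODE start was searched; the second windows of Ifit1bl1 and Ifit1bl2 begin 2529 and 32622 bases inside theirs. By gene, at least 1 ISRE core was found in 3.29% of the 10132 tested genes that have a window and in 20.5% of the 347 of them that were called higher in oe-AQP1 (the call is defined below); these are letters in a fixed window, not measured binding.

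The pieces below carry those matches, in capitals, and stop before the GENCODE start of the Ifit3, Ifit3b, Ifit1 or Ifit1bl1 gene they are named for. Ifit3 (chr19:34560729-34560898, plus strand) and Ifit3b (chr19:34585157-34585327, plus strand) were identical at 136 of the 144 columns in which the 2 pieces overlap (94.4%), and their ISRE cores are the same letters. The Ifit1 piece (chr19:34618144-34618270, plus strand) lies before RefSeq starts of 2 genes: the RefSeq start of Ifit1 and the first RefSeq start of Ifit1bl2 are 146 bases apart and point away from each other, so both windows hold the same ISRE cores, read from opposite strands. GENCODE starts Ifit1bl2 further upstream, which puts that RefSeq start, and the piece shown, inside the GENCODE gene (the start by 21690 bases), so the shared stretch holds for the RefSeq start and not for the GENCODE one. The Ifit1bl1 piece (chr19:34579369-34579568, minus strand) has a single core.
Ifit3: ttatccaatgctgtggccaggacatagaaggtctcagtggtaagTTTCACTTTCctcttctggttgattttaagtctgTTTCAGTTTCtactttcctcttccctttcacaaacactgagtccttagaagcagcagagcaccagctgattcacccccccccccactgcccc
Ifit3b: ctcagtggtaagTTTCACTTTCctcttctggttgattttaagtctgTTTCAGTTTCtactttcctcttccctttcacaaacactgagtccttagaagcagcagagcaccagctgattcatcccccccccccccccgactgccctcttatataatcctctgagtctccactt
Ifit1 and the first RefSeq start of Ifit1bl2: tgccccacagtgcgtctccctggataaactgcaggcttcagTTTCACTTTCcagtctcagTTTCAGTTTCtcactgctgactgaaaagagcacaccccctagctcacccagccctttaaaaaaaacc
Ifit1bl1: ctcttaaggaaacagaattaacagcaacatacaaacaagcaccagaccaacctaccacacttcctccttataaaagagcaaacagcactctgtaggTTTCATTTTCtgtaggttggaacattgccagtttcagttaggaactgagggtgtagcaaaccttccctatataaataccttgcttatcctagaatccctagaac

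The values are expected counts, estimates of the reads per gene that need not be whole. The samples held 18385714 to 21920899 of them each. Aqp1, the check of the labels, was counted 7713 to 8545 times in the oe-AQP1 samples against 25 to 45 times in the controls (log2FC = 7.70). The control samples were less alike than the treated ones: the chi-square per gene between replicates was 1.71 to 2.04 in oe-AQP1 and 2.00 between oe-NC 2 and oe-NC 3, but 9.47 and 11.05 between oe-NC 1 and the others, so every member was also fitted without oe-NC 1. Among 12 renal epithelial markers, Pax8 and Krt8 had at least 3054 and 5969 counts in every sample. Krt19, Lhx1 and Cdh1 reached at most 26, 36 and 78 counts. Epcam was at 0 in all samples and Slc34a1, of the proximal tubule, reached at most 1. All 6 samples carry the same batch label, so batches could not be compared.

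Every IFIT gene was higher in oe-AQP1 than in oe-NC, from 5.74-fold for Ifit1bl2 to 36.2-fold for Ifit3b. All 6 passed the study's thresholds (Benjamini-Hochberg adjusted p, the FDR, under 0.05 and absolute log2FC above 1 in limma-voom, n = 3 per group); a gene that passes is called higher or lower. Of the 15522 genes tested, 4.39% were called higher. In all 6 genes the lowest oe-AQP1 value lay above the highest oe-NC value in CPM, the counts of a gene scaled to the size of its library, which 23.5% of all genes tested did. Added up, the family took 46670, 51937 and 49172 counts in oe-AQP1 1 to 3, against 3101, 2968 and 3381 in oe-NC 1 to 3. In CPM these sums were 2372 ± 17.6 and 159.7 ± 2.39 (SD, n = 3), a log2FC of 3.89 (SE 0.031, FDR = 5.17e-13), and the family's part of all counts was 0.236% to 0.240% against 0.0157% to 0.0161%. In bulk RNA a larger share of cells that express a gene and more RNA per cell cannot be told apart.

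**Figure D1:**
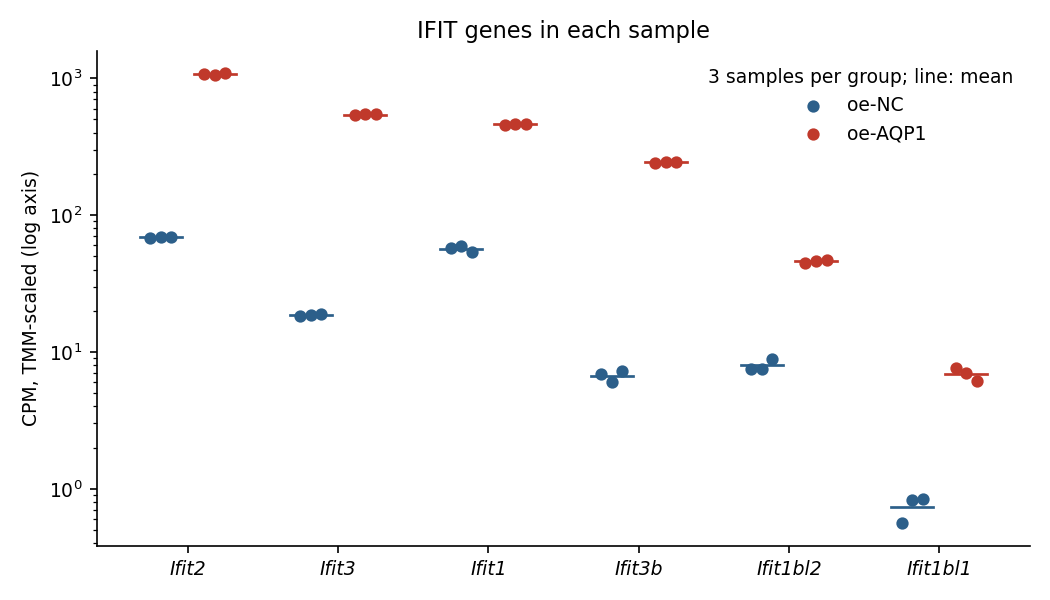
Level of each IFIT gene in each of the 6 samples, in CPM after TMM scaling on a log axis, with oe-NC in blue, oe-AQP1 in red and a short line at each group mean (n = 3). The groups are apart in every gene, and Ifit1bl1, with 0.560 to 0.844 CPM in oe-NC, is the lowest of the 6 genes in either group.

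Ifit1, the sensor of unmethylated caps, was counted 8954.41, 10203.20 and 9477.68 times in oe-AQP1 1 to 3, and 1123.05, 1092.04 and 1137.89 times in oe-NC 1 to 3. Each oe-AQP1 sample exceeded every control. In CPM the means were 459.3 ± 5.74 and 56.78 ± 3.21 (SD, n = 3), with a log2FC of 3.02 (SE 0.0456, FDR = 1.96e-11), 8.11-fold with a 95% interval of 7.55 to 8.70. Of the 6 genes, Ifit1 in oe-NC was thus among the best expressed, and its fold change was the second lowest.

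Ifit2, linked to RNA binding and cell death, gave 21353, 23150 and 22365 counts in oe-AQP1, compared with 1324, 1273 and 1474 in oe-NC. It had more counts than any other member in each sample, and its groups were far apart. Its mean CPM was 1074 ± 18.3 against 68.75 ± 1.15 (SD, n = 3), a log2FC of 3.96 (SE 0.037, FDR = 1.42e-12), or 15.6-fold. Only 53 of the genes tested had a higher mean CPM than Ifit2 in oe-AQP1, compared with 3832 in oe-NC. By FDR, Ifit2 shared the first place among all 15522 genes tested with Rsad2, and by log2FC it was the 54th.

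Ifit3, the partner protein, stood at 10565.53, 12002.37 and 11189.58 counts with Aqp1, compared with 360.11, 340.24 and 407.02 in the controls. Its mean CPM was 541.5 ± 6.17 against 18.69 ± 0.375 (SD, n = 3), a log2FC of 4.86 (SE 0.0493, FDR = 1.93e-12), or 28.9-fold. Ifit3b, its copy, stood at 4760.47, 5408.63 and 5047.42 counts against 134.89, 109.76 and 153.98. The mean CPM of Ifit3b was 244.1 ± 2.87 against 6.70 ± 0.627 (SD, n = 3), and its log2FC of 5.18 (SE 0.0808, FDR = 2.37e-11), or 36.2-fold, placed it 18th among all genes tested. The 2 copies thus headed the family by fold change, with no overlap between groups in either.

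For Ifit1bl2 the counts were 885.36, 1019.61 and 967.32 with Aqp1, and 147.95, 137.96 and 190.11 without it. Its log2FC of 2.52 (SE 0.083, FDR = 5.68e-09), or 5.74-fold, was the smallest of the 6. Ifit1bl1 was the rarest member, with 151.23, 153.19 and 125.00 counts against 11, 15 and 18. Its log2FC of 3.19 (SE 0.243, FDR = 5.16e-06) carried the widest 95% interval of the family, from 6.25-fold to 13.2-fold, and that interval takes in the estimate for Ifit1. Without oe-NC 1, the control sample with the fewest Ifit1bl1 counts, the log2FC of Ifit1bl1 was 3.00 (SE 0.301, FDR = 1.34e-07), and those of the other members were 3.03 for Ifit1, 3.95 for Ifit2, 4.84 for Ifit3, 5.19 for Ifit3b and 2.48 for Ifit1bl2.

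**Figure D2:**
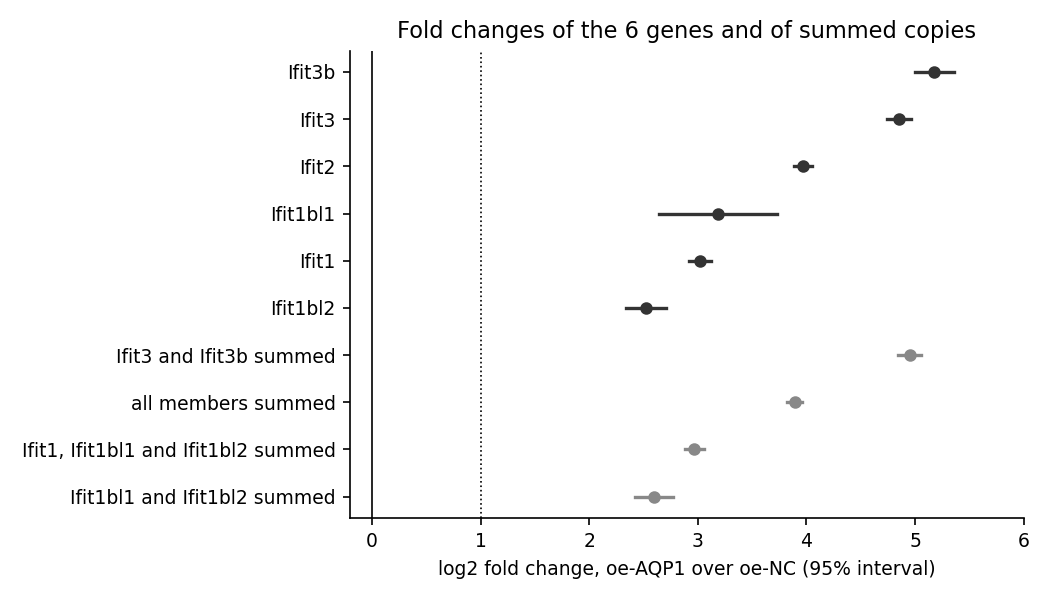
Log2 fold change of oe-AQP1 over oe-NC with its 95% interval for each IFIT gene (black) and for sums of members (grey), from limma-voom with 3 samples per group. The sums are Ifit3 with Ifit3b, Ifit1bl1 with Ifit1bl2, these last 2 with Ifit1, and all 6 genes. The dotted line marks a log2FC of 1. Ifit3b (5.18) and Ifit3 (4.86) lie to the right of Ifit2 (3.96), and the interval of Ifit1bl1 (3.19) spans the value of Ifit1 (3.02).

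The decimals of the counts show where reads were divided. Ifit2 was whole in 6 of 6 samples, as were the 3 oe-NC values of Ifit1bl1 and 1 of its oe-AQP1 values. Ifit1, Ifit3, Ifit3b and Ifit1bl2 were whole in none. The sum of Ifit3 and Ifit3b, however, was whole within 0.015 in all 6 samples. The sum of Ifit1 and Ifit1bl2 was whole in 4 samples, and adding Ifit1bl1 made it whole in all 6; the 2 samples that needed it were oe-AQP1 1 and oe-AQP1 2, in which Ifit1bl1 itself was not whole. The counts therefore fall into 3 closed sets: Ifit2 alone, Ifit3 with Ifit3b, and Ifit1 with Ifit1bl1 and Ifit1bl2, the same sets as share 50-base stretches.

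Sums within a closed set do not depend on how reads were divided inside it. Ifit3 and Ifit3b together had a log2FC of 4.95 (SE 0.0463, FDR = 9.45e-13), between the values of the single copies. Ifit1, Ifit1bl1 and Ifit1bl2 together, a sum chosen after the decimals had been seen, had a log2FC of 2.97 (SE 0.0404, FDR = 1.04e-11). The sum of Ifit1bl1 and Ifit1bl2 had a log2FC of 2.59 (SE 0.0791, FDR = 2.89e-09). That pair is not a closed set, since its sum was whole in 0 of 6 samples, so its value still depends on the division. The order Ifit3 with Ifit3b, then Ifit2, then the Ifit1 group thus held for the closed sets, whose 95% intervals of 4.85 to 5.05, 3.88 to 4.05 and 2.88 to 3.06 did not overlap.

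Ratios taken inside a sample do not depend on scaling between samples. Ifit3b had 45.1% of the counts of Ifit3 in each oe-AQP1 sample, and 37.5%, 32.3% and 37.8% of them in oe-NC 1, 2 and 3. Ifit1bl2 had 9.89%, 9.99% and 10.2% of the counts of Ifit1 in oe-AQP1 and 13.2%, 12.6% and 16.7% in oe-NC. Ifit3 had 118% of the counts of Ifit1 in each oe-AQP1 sample, but 32.1%, 31.2% and 35.8% in the controls, so the order of the 2 genes by counts was reversed between the groups. Across the 15 pairs of members, the log2 ratio did not overlap between groups in 14. The exception was Ifit1 over Ifit1bl1, at 5.89 to 6.25 in oe-AQP1 against 5.98 to 6.67 in oe-NC. The 15 ratios are drawn from 6 genes and are not separate observations, and no such count was made for other pairs of genes. Inside a closed set a ratio also depends on how reads were divided. With 3 samples against 3 the exact two-sided permutation test cannot give a p under 0.1, so none of the 14 could pass 0.05 (p = 0.1 each, 0.107 after adjustment over the 15 pairs).

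**Figure D3:**
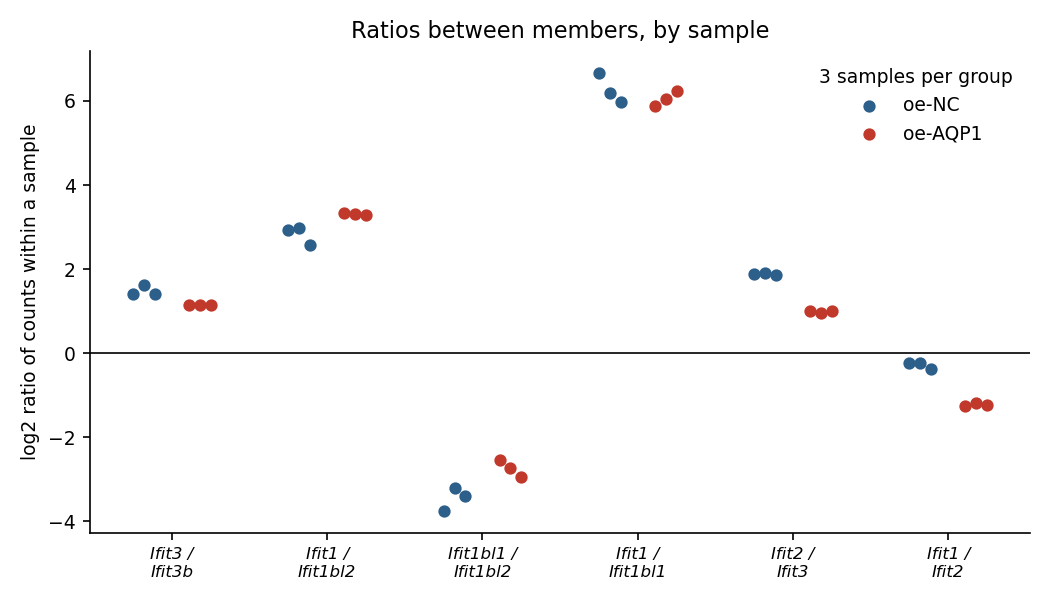
Log2 ratio of the counts of 2 IFIT genes within each sample for 6 of the 15 pairs, oe-NC in blue and oe-AQP1 in red, 3 samples per group. The ratio of Ifit3 to Ifit3b is 1.15 in every oe-AQP1 sample and 1.40 to 1.63 in oe-NC, and Ifit1 over Ifit1bl1 is the pair shown whose groups overlap.

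Levels of different genes were compared per kilobase of annotated exon. In oe-AQP1 the order was Ifit3 (188.0 ± 2.18 CPM per kb), Ifit2 (181.8 ± 3.10), Ifit3b (119.5 ± 1.42), Ifit1 (61.89 ± 0.775), Ifit1bl2 (13.04 ± 0.329) and Ifit1bl1 (3.05 ± 0.348). In oe-NC it was Ifit2 (11.64 ± 0.199), Ifit1 (7.65 ± 0.433), Ifit3 (6.49 ± 0.132), Ifit3b (3.28 ± 0.307), Ifit1bl2 (2.27 ± 0.225) and Ifit1bl1 (0.328 ± 0.0697), all with SD and n = 3. No neighbours in either order overlapped between samples. The lead of Ifit3 over Ifit2 in oe-AQP1 hung on the length used, since with the longest transcript of each gene Ifit2 stood at 219.0 and Ifit3 at 188.3 CPM per kb. With coding length, Ifit2 (759.7) again led Ifit3 (409.3) in oe-AQP1 and Ifit1 (329.9) stood above Ifit3b (201.4), while Ifit1bl2 (5.38 to 6.37) and Ifit3b (4.96 to 5.96) overlapped in oe-NC.

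The make-up of the family differed between the groups accordingly. On the same per-kilobase scale Ifit3 made up 33.1% ± 0.25 of the family in oe-AQP1 and 20.5% ± 0.21 in oe-NC (SD, n = 3). Ifit3b made up 21.1% ± 0.17 and 10.4% ± 0.97. Ifit1 held a smaller part in oe-AQP1, 10.9% ± 0.10 against 24.2% ± 1.49, and so did Ifit1bl2, 2.30% ± 0.04 against 7.16% ± 0.65. Ifit2 was at 32.1% ± 0.53 and 36.8% ± 0.33, but this difference turned with the length used: without any length it held 45.3% in oe-AQP1 and 43.1% in oe-NC. The sizes of the other shares also hung on length, though not their direction: without any length Ifit3 held 22.8% against 11.7%, Ifit3b 10.3% against 4.20%, Ifit1 19.4% against 35.6% and Ifit1bl2 1.94% against 5.01%.

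The nearest kept genes on each side of the cluster were read to see whether they shared the change. Only Lipa and Slc16a12 lay close to it. Of the 5 nearest kept genes on each side, 0 of 10 were called in limma-voom and 1, Fas, in edgeR and in DESeq2. An unadjusted p under 0.05 was found in 4. The FDR threshold alone was passed by 2 with a higher and 2 with a lower value, as by 16.0% and 16.6% of all genes tested. Lipa, the lysosomal acid lipase gene that ends 5.8 kb before Ifit2, had a log2FC of -0.51 (SE 0.0692, FDR = 0.000323). Slc16a12, a transporter gene 2.8 kb beyond Ifit1bl2, had a log2FC of -0.71 (SE 0.0556, FDR = 6.07e-06). Both lay below 0 while the IFIT genes between them were all above 2.5. The closest to a call was Fas, a death receptor gene 222.8 kb away, with 26 to 38 counts against 14 and 15 (log2FC = 0.98, SE 0.251, FDR = 0.0134). The other 7 lay between -0.20 and 0.35. Of these, Kif20b and Stambpl1 were 259.9 and 309.9 kb from the cluster. The rest (2810449D17Rik, Rnls, A830019P07Rik, Rpp30 and Ankrd1) were 1128.9 to 1449.5 kb away, so they say little about the region itself. Inside the cluster, Cnn2-ps, a processed pseudogene within an intron of Ifit1bl2, had 1, 6 and 3 counts in oe-AQP1 and 0, 0 and 1 in oe-NC and was not tested.

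**Figure D4:**
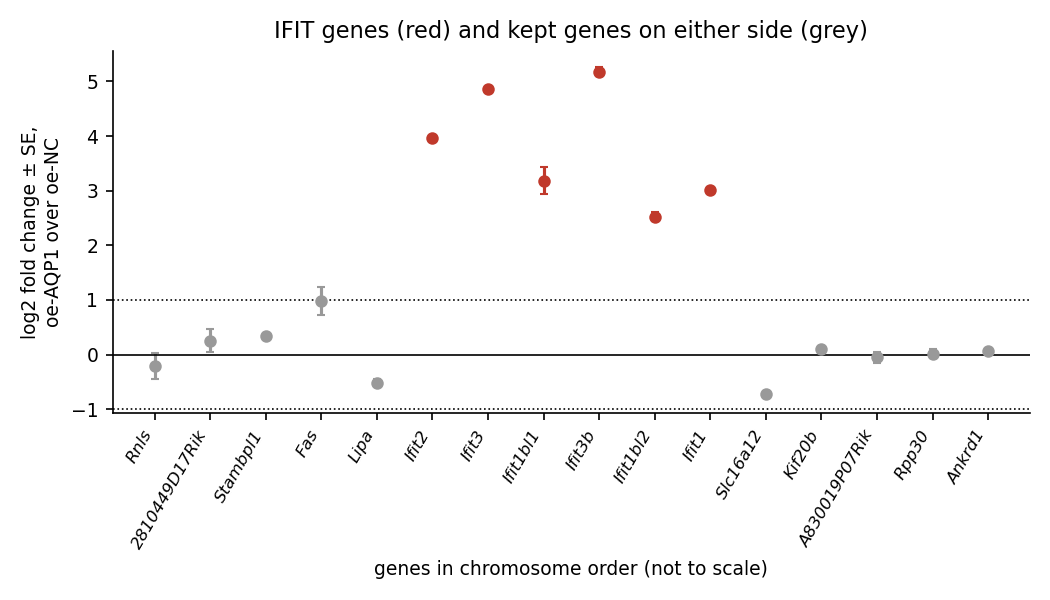
Log2 fold change of oe-AQP1 over oe-NC, with its SE, for the 6 IFIT genes (red) and the 5 nearest genes past the low-count filter on each side (grey), in chromosome order and not to scale, with dotted lines at 1 and -1. The IFIT genes lie between 2.52 and 5.18 and the neighbours between -0.71 and 0.98. The neighbours are 2.8 to 1449.5 kb from the cluster.

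The pathway that drives IFIT genes was read from lists of named genes. The first list held 11 genes for interferon-β, its receptor and kinases, ISGF3 and other interferon regulatory factors. Of these 11, limma-voom called 5 higher and 0 lower. The median log2FC of the 11 was 0.68, beside 0.0023 over all genes tested. Ifnb1, which encodes interferon-β, reached 264 to 288 counts against 3 to 6 in the controls (log2FC = 5.72, SE 0.299, FDR = 2.60e-07). Irf7, which amplifies interferon production, rose by a log2FC of 1.97 (SE 0.0327, FDR = 3.45e-11). Stat2, which encodes a subunit of ISGF3, rose by 1.97 (SE 0.0377), and Irf1, a transcription factor gene, by 1.43 (SE 0.0564). The receptor genes Ifnar1 and Ifnar2 had log2FC of -0.08 (FDR = 0.24) and 0.27 (FDR = 0.00134), and Jak1, of the receptor's kinases, had -0.11 (FDR = 0.0457); none of the 3 was called. Irf9, the DNA-binding subunit of ISGF3, had a log2FC of 0.68 (FDR = 4.31e-07), below the fold threshold.

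Of 9 genes that sense RNA or relay that signal, 3 were called higher and 0 lower, with a median log2FC of 0.88. All 3 were helicases of the RIG-I family: Dhx58 (2.44, SE 0.0511), Ifih1 (1.96, SE 0.0442) and Rigi (1.41, SE 0.0341). Mavs, the adaptor gene of this route, was at 0.06 (FDR = 0.283). Of the 9 genes, 8 passed the FDR threshold alone with a higher value, as 16.0% of all genes tested did. Ikbke, a kinase that activates IRF3 and IRF7, had a log2FC of 0.92 and was called higher without oe-NC 1 (1.01, FDR = 2.32e-08) and with quality weights (1.02, FDR = 1.85e-07).

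Other interferon-induced antiviral genes moved in the same direction as the family. Of 20 such genes, 18 were called higher and 0 lower, with a median log2FC of 1.75. Mx1, an antiviral GTPase, led the list with 8736 to 10035 counts against 125 to 166 (log2FC = 5.91, SE 0.0756, FDR = 6.77e-12). Rsad2, which encodes viperin, followed at 4.02 (SE 0.038), Cmpk2 at 3.50 (SE 0.0427) and Zbp1, a sensor of Z-form nucleic acids, at 3.32 (SE 0.0428). The 2 not called were Zc3hav1 (0.87) and Samhd1 (0.71), both past the FDR threshold. By log2FC, Mx1 stood above all 6 IFIT genes, Rsad2 between Ifit2 and Ifit3, and the other 18 below Ifit2.

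Genes for the cap and for the initiation complex were also read, since IFIT proteins act on both. Of 5 genes for capping and cap methylation, 0 were called in limma-voom, edgeR or DESeq2, and 3 had an unadjusted p under 0.05. The FDR threshold alone was passed by 3, all higher, as by 16.0% of all genes tested. They were led by Cmtr1, the cap ribose methyltransferase whose mark lets host mRNA escape IFIT1 (0.73, SE 0.0408, FDR = 4.35e-07). Of 14 genes for subunits of eIF3, the translation initiation complex that IFIT proteins bind, 0 were called in any of these tools and 7 had an unadjusted p under 0.05. Among those 14, 5 passed the FDR threshold alone with a lower value, as 16.6% of all genes tested did, led by Eif3c at -0.31 (SE 0.0291, FDR = 2.78e-05).

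**Figure D5:**
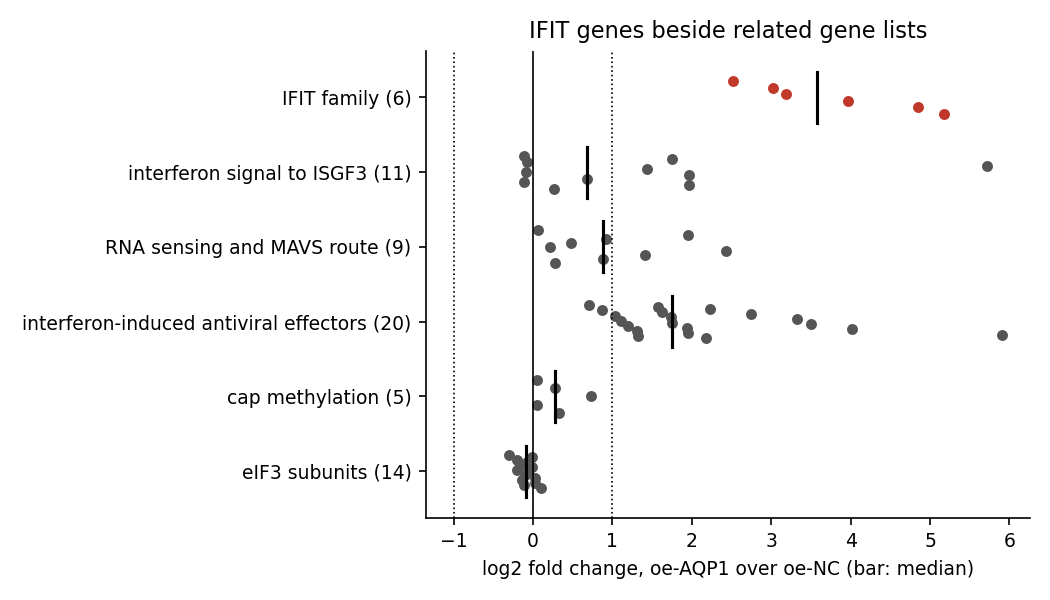
Log2 fold change of oe-AQP1 over oe-NC for each IFIT gene (red) and each tested gene of 5 related lists (grey), with a black bar at the median of each list and dotted lines at 1 and -1. The antiviral effectors spread from 0.71 to 5.91, while the 14 eIF3 genes lie between -0.31 and 0.10.

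Markers of macrophages, cells that also express IFIT genes, were at 0, near 0 or not called higher in oe-AQP1. Of 12 macrophage markers, 9 did not pass the low-count filter; Adgre1, Tyrobp and C1qa were at 0 in all 6 samples and Ptprc had at most 3 counts. Below the filter, Aif1 (9 to 15 counts against 4 to 8) and Cx3cr1 (3 to 9 against 1 to 3) leaned higher in oe-AQP1. So did Mrc1 (2 to 5 against 0). Itgam (0 to 2 in both groups) and Fcgr1 (0 to 1 against 0 to 3) did not. The summed level of the 12 macrophage markers was 48.6 to 52.2 CPM in oe-AQP1 against 55.7 to 59.0 CPM in oe-NC, mostly from Cd68. Csf1r was called lower (56 to 76 counts against 173 to 202, log2FC = -1.51, SE 0.13, FDR = 1.31e-05), as 0.844% of all genes tested were. Of 12 renal epithelial markers, 10 were tested, 0 were called in limma-voom or DESeq2 and 1, Krt19, in edgeR. An unadjusted p under 0.05 was found in 6. All 6 were lower and past the FDR threshold, as 16.6% of all genes tested were. The summed level of the 12 renal epithelial markers was 849.6 to 878.4 CPM in oe-AQP1 against 1029 to 1138 CPM in oe-NC. The part of this difference in the IFIT results was not tested.

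The genes whose profile over the 6 samples was nearest to each member were sought among 9750 genes outside the family with a mean of at least 10 CPM. The measure was the root mean square difference of log2 CPM, each gene centred on its own mean; it is mostly set by the fold change between the groups. Nearest to Ifit2 was Rsad2 (0.0422), nearest to Ifit1 was Ifi207 (0.0545), nearest to Ifit1bl2 was Hsh2d (0.0294), nearest to Ifit3b was Phf11b (0.0679) and nearest to Ifit3 was Trim30d (0.124). The second genes were Iigp1 for Ifit2, C4b for Ifit1, Tlr3 for Ifit1bl2 and Cxcl10 for both Ifit3 and Ifit3b. The nearest gene to Ifit1bl1 was mt-Rnr1, the mitochondrial small ribosomal RNA (0.143), followed by Gm43302 (0.152). At a mean of 1094.4 CPM in oe-AQP1 and 127.77 in oe-NC (log2FC = 3.11, SE 0.0779, FDR = 6.14e-10), mt-Rnr1 moved with the groups as the IFIT genes did; its part in the result was not tested.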

How the data were processed

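RNA of 6 samples of RENCA cells was sequenced from TruSeq libraries, and the authors deposited expected counts per gene, unscaled, with 2 columns of group means that were not used here. The paper's methods name GRCm39; the submitters' processing notes name GRCm38 and mm10 beside fastp, HISAT2, featureCounts and Subread, so the build and the rule for dividing reads are not settled, and neither strand setting nor read length is given. A count that was not whole in at least 1 sample occurred in 37.1% of the genes with any count. The paper filtered interferon-stimulated and viral defense genes, with the stated aim of limiting transfection artifacts, and retained inflammatory mediators relevant to cancer. Its count of differentially expressed genes was taken after that filter, so the counts of called genes here are not set against it. The filtered genes are in the deposited table and were kept here.

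Expected counts were rounded and tested with limma-voom (limma 3.58.1, edgeR 4.0.16 for TMM scaling and filterByExpr with the group, R 4.3.3) over 15522 genes, two-sided, with Benjamini-Hochberg adjustment over all of them; 681 genes were called higher and 131 lower. CPM values are TMM-scaled. Positions and lengths come from GENCODE M39 (GRCm39), which held 78168 of the 78298 identifiers. Members were summed before a fit of the whole table. Coding sequences were aligned globally with Biopython 1.88 (match 2, mismatch -1, gap opening -5, gap extension -0.5). The limma-voom, edgeR and DESeq2 fits were also run on simulated data in which genes were drawn independently. That run did not cover reads divided between copies. The alternatives tried were DESeq2 1.42.0, the quasi-likelihood test of edgeR, quality weights, other scalings, filters, rounding, thresholds, a replicate block and leaving out each sample; the sum of the Ifit1 group and the coding length for shares were added after seeing the data.

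Members and lists were chosen with earlier results of these data known. Named were the 6 members, Aqp1, genes of the lists that were called or led their list (at most 4 examples each), the locus neighbours and, for each member, the 2 genes nearest in profile. Marker genes at 0 or below the low-count filter, the distances of the locus neighbours, and list genes that were not called were added after their values were seen. One gene of the interferon list is counted but not reported by name here. Replicates were compared, and no pair agreed within sampling noise.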

Additional observations from a re-analysis of the deposited data

How the results depend on the processing

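All 6 members stayed called and higher under each of 17 alternatives (102 member values), where their log2FC ranged from 2.97 to 3.05 for Ifit1, 3.95 to 3.98 for Ifit2, 4.84 to 4.87 for Ifit3, 5.10 to 5.23 for Ifit3b, 3.00 to 3.29 for Ifit1bl1 and 2.48 to 2.60 for Ifit1bl2. The count of all genes called moved from 812 to 482 when at least 10 counts were asked of every sample, to 5050 without a fold threshold and to 248 at an FDR under 0.01 with an absolute log2FC above 2; it was 1136 with no low-count filter and 705 with DESeq2. Replicate numbers did not pair the samples, since the deviations of same-numbered samples correlated at 0.0147, -0.0201 and -0.0729; with a replicate block 786 genes were called and no call of a member or a list changed. Among the lists, Fas, the neighbour nearest to a call, made the locus count 1 in edgeR's quasi-likelihood test (log2FC 1.01), in DESeq2 (1.02) and without oe-AQP1 replicate 1 (1.06), oe-AQP1 replicate 2 (1.05) or oe-NC replicate 2 (1.05), so that count ranged from 0 to 1 over the samples left out. Krt19 made the renal epithelial count 1 in edgeR's quasi-likelihood test (-1.03) and without oe-NC replicate 3 (-1.23), again a range of 0 to 1. Without a low-count filter Mrc1 made the macrophage count 2 (2 to 5 counts against 0). Adar was not called without oe-NC replicate 3 (0.99). Counts of 11 to 18 for Ifit1bl1 in oe-NC limit the precision of its fold change.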

Other observations

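Within oe-AQP1 the ratios between some members varied less than independent counting gives on average. The log2 ratio of Ifit3 to Ifit3b had an SD of 0.001 over the 3 oe-AQP1 samples, while independent Poisson counts of the same means would give 0.024; in oe-NC the SD was 0.129 against 0.146. The ratio of Ifit1 to Ifit3, which share no 50-base stretch, had an SD of 0.003 against 0.020 in oe-AQP1 and 0.105 against 0.087 in oe-NC. In the ratio of Ifit2 to Ifit3 the SD was 0.035 against 0.017 in oe-AQP1 and 0.024 against 0.085 in oe-NC. In all, the SD was below the counting value in 7 of 15 pairs in oe-AQP1 and in 9 of 15 in oe-NC. These pairs were picked after their values were seen, 3 samples give a poor estimate of an SD, and the cause was not tested.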
